A study of Mus musculus with 12 samples.

Results

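The genes described here are the splicing factor families of the medial prefrontal cortex, measured in adult offspring of mice given PolyI:C or saline in late pregnancy. They were chosen by symbol: every gene with a probe set of its own whose symbol in the platform annotation began with Srsf, Hnrnp, Luc7l, Sf3a, Sf3b, U2af, Prpf, Srrm, or Rbm followed by a digit, leaving out Luc7l3 and Srrm2. The rule found 89 of 18820 genes, in 9 families: 33 Rbm, 18 Hnrnp, 11 Prpf, 10 Srsf, 6 Sf3b, 3 Sf3a, 3 U2af, 3 Srrm and 2 Luc7l genes. A prefix is not a function, and the Rbm family, named for an RNA recognition motif, also holds genes with main roles outside splicing, such as Rbm3, a cold-induced protein, and Rbm15, an adaptor of the RNA methylation complex. Symbols with these prefixes that occurred only on probe sets shared with another gene, among them Hnrnpa1, Hnrnpm and Prpf39, have no value here.

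The animals were C57BL/6N mice aged 12 weeks. The treated mothers had received PolyI:C, a synthetic double-stranded RNA that mimics viral infection, intravenously at 5 mg/kg on gestation day 17, and the control mothers had received saline by the same route on that day. Each group held 6 offspring, with 1 array per animal. The labels name no litter, sex or array strip, so animals of a group may be littermates, and each p-value refers only to the variation among the animals measured.

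Introns are removed by the spliceosome, a complex of small nuclear RNAs and proteins assembled anew on each intron. The U1 particle, with the Luc7-like proteins, pairs with the 5' splice site, the U2AF pair binds the 3' splice site, and the SF3a and SF3b complexes hold the U2 particle at the branch point. The PRPF proteins bring in and rearrange the U4/U6 and U5 particles. SR proteins mostly promote the use of exons they bind and hnRNP proteins often oppose it, and many genes of both families limit their own level through exons or retained introns that make the transcript unproductive. Neurons use this machinery heavily, and Srrm3 and Srrm4 direct the short exons that are particular to neurons.

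After PolyI:C, 5 of the 89 genes were higher past an adjusted p of 0.05 and none was lower: Srsf2, Srsf11, Sf3b1, Rbm5 and Rbm12b2. That is 5.62% of the members, where 2.83% of the 23099 probe sets tested were called, 2.02% higher and 0.805% lower. Most probe sets of the members were bright, 85 of 89 lying at or above the 50th percentile of the table, and among all 13783 tested probe sets of that brightness, the brighter probe sets below, 3.15% were called higher. All 5 differences were small, between 1.11-fold and 1.24-fold. A further 24 members passed an unadjusted p of 0.05 and were higher, which makes 29 of 89 (32.6%) against 11.7% of all probe sets and 17.5% of the brighter probe sets. No member had an unadjusted p under 0.05 in the other direction, as 7.33% of all probe sets did, although 2 members did after quantile normalization and 1 without PolyI:C 1 or PolyI:C 2. Shares lower after PolyI:C were not counted over the brighter probe sets. In this tissue extract, a change in the share of a cell type and a change in RNA per cell cannot be told apart.

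Differences are given throughout as PolyI:C minus control on the log2 scale. The median over the 89 genes was 0.048, against 0.0030 over all probe sets and 0.022 over the brighter probe sets. Group means were higher after PolyI:C for 68 members and lower for 21 (76.4% higher, against 52% of all probe sets and 63% of the brighter probe sets). The middle part of the members, between the lower and upper quartile, ran from 0.0077 to 0.10. The excess over other bright probe sets was therefore a shift of 0.027 in the median. The moderated standard errors (SE) of single genes were 0.028 to 0.079, but these do not measure the uncertainty of that shift.

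**Figure D1:**
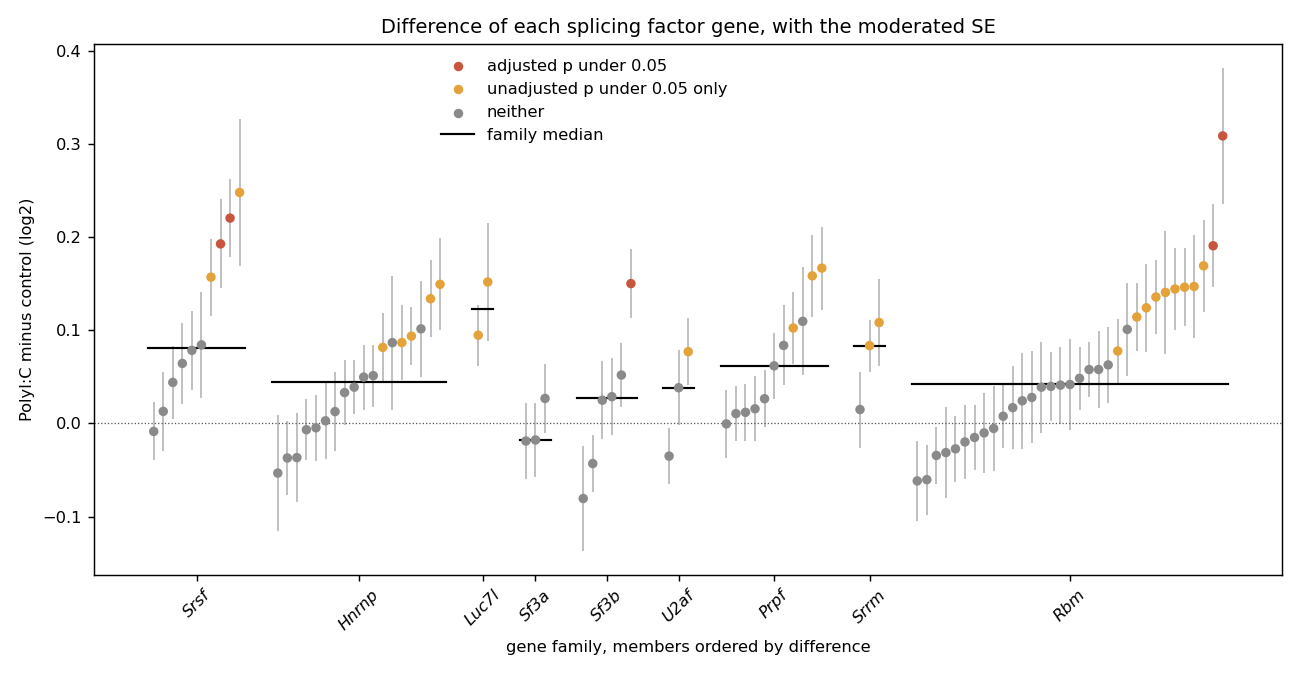
Difference between PolyI:C and control (log2, vertical axis) of each of the 89 genes, grouped by family and ordered within it. Bars are the moderated SE, horizontal lines the family medians, and colours give the test result. The 5 genes past the adjusted threshold all lie at or above 0.15, and no gene lies below -0.081.

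The SR proteins, which bind exonic enhancers through RNA recognition motifs and recruit the spliceosome through an arginine-serine tail, held 2 of the 5 calls among 10 genes. Of the 10 Srsf genes 9 had a higher mean, and the family median was 0.081. Srsf2, a component of nuclear speckles that promotes exon inclusion, ranged from 8.49 to 8.78 in controls (median 8.58) and from 8.79 to 8.87 after PolyI:C (median 8.83; log2, n = 6 each). The groups did not overlap, although control 5, at 8.78, lay just under the lowest treated animal, and the treated animals were much more alike (SD 0.032) than the controls (SD 0.10). Srsf2 rose by 0.22 ± 0.042 (SE), or 1.17-fold (limma adjusted p = 0.0139). This call was kept without any single animal and lost only without variance moderation (adjusted p = 0.0617).

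Srsf11, an SR-related protein of the same speckles, ranged from 7.19 to 7.43 in controls (median 7.34) and from 7.43 to 7.67 after PolyI:C (median 7.48). PolyI:C 1 and PolyI:C 6 were the highest, at 7.61 and 7.67, and PolyI:C 2 lay slightly below control 5. Srsf11 rose by 0.19 ± 0.048 (adjusted p = 0.0409), and its call held only in the fits without control 5, PolyI:C 2 or PolyI:C 5 (largest adjusted p in the other 9 fits 0.0914). Srsf6 came just short of the threshold at 0.16 ± 0.041 (adjusted p = 0.052), with 4 of 6 treated animals above the highest control, and it passed without control 5, control 6 or PolyI:C 2. Srsf5 had the largest difference of the family, 0.25 ± 0.079, with a wide spread in both groups: 7.30 to 7.69 in controls and 7.54 to 7.97 after PolyI:C (adjusted p = 0.095). The remaining Srsf genes lay between -0.0086 for Srsf4 and 0.084 for Srsf10, a repressor of splicing when dephosphorylated, with Srsf1 at 0.078, Srsf3, which also serves mRNA export, at 0.064, Srsf9 at 0.044 and Srsf12 at 0.013.

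At the branch point, Sf3b1, the largest SF3b subunit, was the 1 gene called among the Sf3a, Sf3b and U2af members. It ranged from 8.42 to 8.64 in controls (median 8.55) and from 8.65 to 8.73 after PolyI:C (median 8.67), again with no overlap and with control 5 the highest control. Sf3b1 rose by 0.15 ± 0.037, or 1.11-fold (adjusted p = 0.0398), and its call held only in the fits without control 4, control 5, PolyI:C 2 or PolyI:C 5 (largest adjusted p in the other 8 fits 0.0951). The other SF3b subunits gave values in both directions: 0.052 ± 0.034 for Sf3b3, 0.029 for Sf3b5, 0.025 for Sf3b6, which touches the branch point, -0.043 for Sf3b2 and -0.081 ± 0.056 for Sf3b4. All 6 treated animals lay below the control mean of Sf3b2, but the ranges overlapped and it did not pass (adjusted p = 0.463). The 3 SF3a subunits, which join SF3b in the U2 particle, had differences of 0.027 ± 0.037 (Sf3a3), -0.018 (Sf3a1) and -0.019 ± 0.041 (Sf3a2), none larger than its SE. Sf3a3 changed sign after quantile normalization and with the mean of its probe sets, and Sf3a2 without control 2.

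The U2AF subunits recognise the 3' splice site, and none of the 3 was called. U2af1, the small subunit, differed by 0.038, and U2af1l4, a paralog of it, by 0.077 ± 0.036 (adjusted p = 0.255). U2af2, the large subunit that binds the polypyrimidine tract, ran from 8.12 to 8.22 in controls and from 8.08 to 8.18 after PolyI:C, a difference of -0.035 ± 0.030. At the 5' splice site, Luc7l and Luc7l2, relatives of a yeast U1 protein, differed by 0.095 ± 0.033 and 0.15 ± 0.063 (adjusted p = 0.122 and 0.198). Of the 6 treated animals 4 lay above the highest control for Luc7l and 2 for Luc7l2. The third gene of this kind, Luc7l3, left out by the rule and known for a detained intron, ran from 7.56 to 7.90 in controls and from 7.91 to 8.18 after PolyI:C, a rise of 0.29 ± 0.061 (adjusted p = 0.0219).

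Among the RNA-binding motif genes, 2 of 33 were called (6.06%), 24 had a higher mean and the median was 0.042. Rbm5, which acts on the choice of splice sites in early spliceosomes and on transcripts of cell death genes, ranged from 7.75 to 8.01 in controls (median 7.90) and from 7.999 to 8.14 after PolyI:C (median 8.11). Only PolyI:C 5, the lowest, lay below the 2 highest controls, 4 and 5. Rbm5 rose by 0.19 ± 0.044, or 1.14-fold (adjusted p = 0.0314), but missed the threshold when control 1, 2 or 3, or PolyI:C 1, 3, 4 or 6, was left out (largest adjusted p 0.072). Rbm12b2, a gene whose role is little known, had the largest difference of all members, 0.31 ± 0.073 or 1.24-fold (adjusted p = 0.0341). It ran from 4.84 to 5.28 in controls and from 5.27 to 5.65 after PolyI:C, with control 1 lowest and PolyI:C 4 highest, and only PolyI:C 5 under the highest control. This was the dimmest of the 5 called genes, its paralog Rbm12b1 shares a further probe set with it, and it missed the threshold when control 1, control 3, PolyI:C 1, PolyI:C 4 or PolyI:C 6 was left out (largest adjusted p 0.0747).

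**Figure D2:**
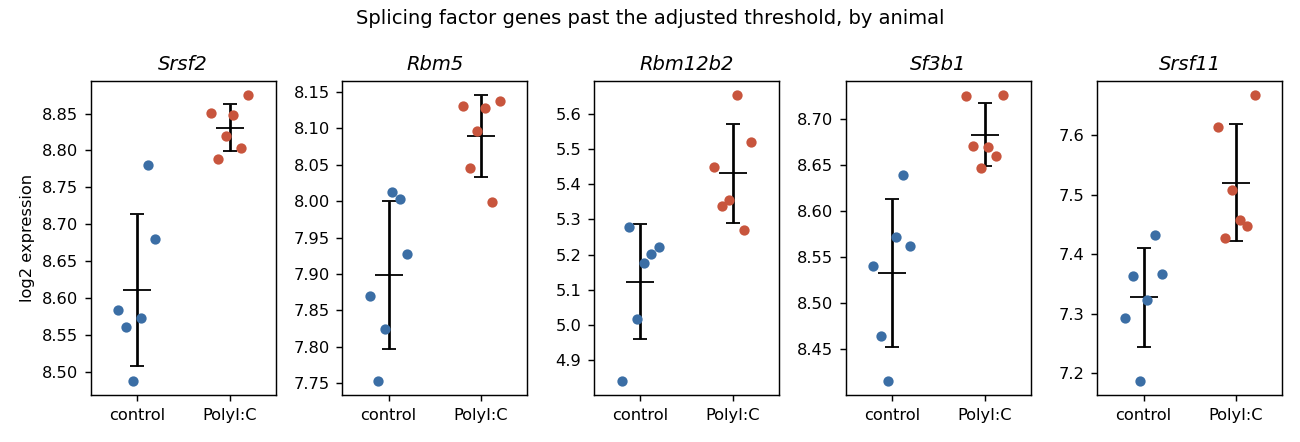
Log2 expression (vertical axes, scaled per gene) of the 5 genes past the adjusted threshold, with 1 point per animal in replicate order and the mean ± SD of each group of 6. Srsf2 and Sf3b1 have no overlap between groups, and in Rbm5, Rbm12b2 and Srsf11 1 treated animal lies below the highest control.

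Of the other Rbm genes 5 had an adjusted p between 0.05 and 0.10. Rbm39, a coactivator related to U2af2, differed by 0.15 ± 0.042 (adjusted p = 0.0669), and 4 controls between 7.96 and 8.01 lay apart from controls 5 and 6 at 8.20 and 8.14. Rbm4, which regulates alternative exons, ran from 5.33 to 5.44 in controls, and all treated animals lay above that range at 5.53 to 5.62 except PolyI:C 3 at 5.36. Its difference was 0.14 ± 0.040 (adjusted p = 0.0716). Rbm26 (0.14 ± 0.044, adjusted p = 0.083) and Rbm15 (0.11 ± 0.037, adjusted p = 0.0969) were similar in size, with 4 and 3 of 6 treated animals above the highest control. Rbm33 differed by 0.17 ± 0.049 on its brightest probe set (adjusted p = 0.07).

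A few Rbm genes gave little signal in this tissue. Rbm44, Rbm47 and Rbm31y lay below the 25th percentile of the table (a mean of 3.945), with group medians between 3.10 and 3.93, and differed by -0.060, -0.027 and -0.010. Rbm20, which directs splicing in heart muscle, differed by -0.034, and Rbm24, another muscle regulator, by -0.0054. Rbm3, the cold-induced protein, differed by 0.14 ± 0.066 (adjusted p = 0.262), with a control range of 8.93 to 9.34 and a treated range of 9.17 to 9.42. Rbm8a, a core protein of the exon junction complex, differed by 0.017, and Rbm22, which takes part in activating the spliceosome, by 0.0077. The lowest Rbm value was that of Rbm15b, at -0.062 ± 0.043.

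None of the 18 hnRNP genes passed the adjusted threshold, 5 were higher at an unadjusted p under 0.05, and the family median was 0.044. Hnrnpa2b1, which takes part in splicing and in RNA transport, had the lowest p. It ran from 8.11 to 8.30 in controls (median 8.23) and from 8.25 to 8.40 after PolyI:C (median 8.37), with PolyI:C 2 the only treated animal inside the control range, a difference of 0.13 ± 0.041 (adjusted p = 0.0863). Hnrnpdl, a relative of Hnrnpd with a known self-limiting exon, differed by 0.15 ± 0.049 (adjusted p = 0.105), and PolyI:C 1 and PolyI:C 6, at 8.45 and 8.46, stood above all others. The other 3 with an unadjusted p under 0.05 were Hnrnpll, Hnrnpa3 and Hnrnpu, a scaffold of nuclear RNA, at 0.094, 0.087 and 0.082. Hnrnph1, which binds G-rich tracts, differed by 0.10 ± 0.051, with control 5 (8.28) above 5 of the 6 treated animals. Several classic members had differences no larger than their SE: Hnrnpc, which binds uridine tracts, at 0.013 ± 0.042, Hnrnpf at 0.0028 ± 0.041, Hnrnpr at -0.0047 ± 0.036, Hnrnpl at -0.037 ± 0.048 and Hnrnpa0 at -0.053 ± 0.062.

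Of the 11 PRPF genes 10 had a higher mean and none was called, with 3 at an unadjusted p under 0.05 and a median of 0.062. Prpf4b, a kinase of the U4/U6.U5 particle, ran from 6.91 to 7.18 in controls and from 7.13 to 7.31 after PolyI:C, a difference of 0.17 ± 0.045 (adjusted p = 0.0545). Prpf38a, which joins before activation, ran from 6.87 to 7.10 and from 7.02 to 7.25, a difference of 0.16 ± 0.044 (adjusted p = 0.0613). In both genes control 5 was the highest control, and both passed without it (adjusted p = 0.0243 and 0.0323). Prpf40b, a U1-associated protein, differed by 0.10 ± 0.039. The catalytic scaffold Prpf8 differed by 0.012 ± 0.031, the U5 protein Prpf6 by -0.0005 ± 0.036, the ubiquitin ligase Prpf19 by 0.016 ± 0.035, and the second-step factor Prpf18 by 0.010 ± 0.030. The U4/U6 proteins Prpf3, Prpf4 and Prpf31 differed by 0.084, 0.062 and 0.027.

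Of the serine-arginine repetitive matrix genes none of 3 was called. Srrm3, a neuronal regulator of short exons, had no overlap between groups, from 5.96 to 6.05 in controls and from 6.06 to 6.14 after PolyI:C, yet its difference of 0.083 ± 0.028 did not pass (adjusted p = 0.108). Srrm4, the other regulator of short neuronal exons, ran from 7.09 to 7.36 and from 7.16 to 7.29 and differed by 0.015 ± 0.041. Srrm1, a general splicing coactivator, differed by 0.11 ± 0.047 (adjusted p = 0.218). Srrm2, left out by the rule, also had no overlap, from 10.15 to 10.24 against 10.27 to 10.42, with a difference of 0.11 ± 0.032 (adjusted p = 0.065). In all, the groups did not overlap in 3 of the 89 members, Srsf2, Sf3b1 and Srrm3, each higher after PolyI:C, or 3.37% against 1.73% of all probe sets and 2.78% of the brighter probe sets. None was lower without overlap, as 0.636% of all probe sets were, a share not counted over the brighter probe sets.

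The members were then compared animal by animal, as the median over genes of each gene's deviation from its 12-sample mean. Controls 1 to 4 lay between -0.058 and -0.028 and control 6 at -0.012, whereas control 5 lay at 0.029, within the treated range. PolyI:C 3 and 2 lay lowest among the treated animals, at -0.0021 and 0.0048, and the other 4 lay between 0.027 and 0.039. The order was much the same for the 33 Rbm genes, with control 5 at 0.030 and the other controls at -0.071 to -0.020. In the Srsf family control 5 (0.071) exceeded 5 of the 6 treated animals and control 1 (-0.13) was lowest. In the Hnrnp family control 1 was lowest (-0.087), PolyI:C 2 was the lowest treated animal (-0.032), and the ranges overlapped. The brighter probe sets moved less, from -0.026 to 0.030, with PolyI:C 5 highest and control 5 the highest control (0.0074).

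**Figure D3:**
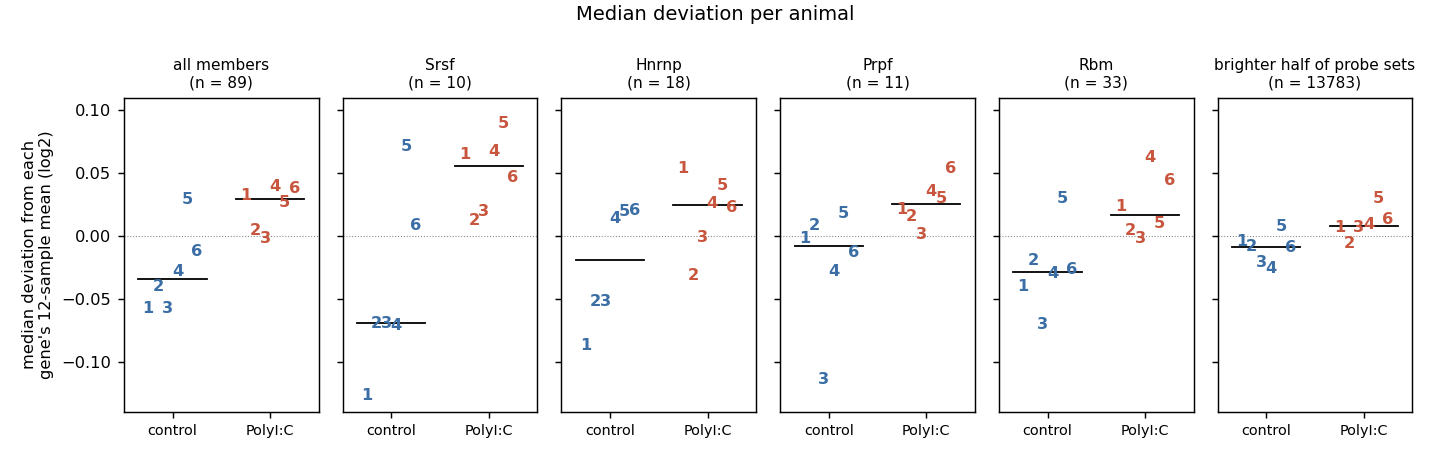
Median deviation from each gene's 12-sample mean (log2, vertical axis) for all 89 genes, for the 4 largest families and for the brighter probe sets. Digits are replicate numbers and lines are group medians. Control 5 lies among the treated animals in most panels, and controls 1 to 3 are the lowest animals of the Hnrnp family.

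The number of called members depended on single animals. It was 1, the gene being Srsf2 each time, without control 1, control 3, PolyI:C 1, PolyI:C 4 or PolyI:C 6, fits in which 0.905%, 0.844%, 0.706%, 0.935% and 1.13% of all probe sets were called higher. It was 2, Srsf2 and Rbm12b2, without control 2 (0.667% of all probe sets). It was 10 without control 5, where 2.48% of all probe sets were called higher, and 11 without controls 5 and 6 together, where 2.16% were. The added genes without control 5 were Srsf6, Prpf4b, Prpf38a, Rbm39 and Rbm33, and without both animals also Hnrnpa2b1. Leaving out PolyI:C 3, the animal low in Rbm4, added Rbm4 and Prpf38a and lost Rbm5, Sf3b1 and Srsf11. In that fit 4 members were called higher, and 299 of all 23099 probe sets. Controls 5 and 6 had the highest mean level of 9 markers of striatal neurons, a neighbouring tissue, at 7.14 and 6.96, against 6.40 to 6.68 in the other controls and 6.37 to 6.56 after PolyI:C. All 9 had a lower mean after PolyI:C and 1, Ppp1r1b, was called. Controls 5 and 6 were also the 2 controls with the highest median deviation over the members (0.0295 and -0.0122). Their omission raised the median over members from 0.048 to 0.064, but it is therefore no test of these markers. The part of these markers in the members' differences was not tested.

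Other RNA classes also differed between the groups. Of 11 markers of mature oligodendrocytes 5 were lower after PolyI:C, none was higher and all 11 had a lower mean, and their mean level ran from 7.33 to 7.72 in controls and from 6.92 to 7.43 after PolyI:C. Both nuclear-retained RNAs measured, Malat1 (0.43 ± 0.11, adjusted p = 0.049) and Meg3 (0.39 ± 0.091, adjusted p = 0.0307), were higher, with a mean level of 9.47 to 10.06 in controls and 9.88 to 10.34 after PolyI:C. PolyI:C 1 and 6 were highest there, and they were also the 2 highest treated animals for 4 of the 5 called genes, Srsf2, Srsf11, Sf3b1 and Rbm5, and for Hnrnpdl and Srsf5. For Rbm12b2 they came next after PolyI:C 4. Over all 89 members PolyI:C 4 had the highest median deviation (0.0392), and for the nuclear-retained RNAs it came next after PolyI:C 1 and 6 (10.23). PolyI:C 1, 4 and 6 were thus the highest treated animals in both measures, and PolyI:C 2, 3 and 5 the lowest. Controls 1, 3 and 2 were the lowest controls in both, in that order. They lay at 9.47, 9.57 and 9.67 for the nuclear-retained RNAs and at -0.058, -0.0579 and -0.040 over the members. The remaining controls were ordered differently. Control 4 was highest for the nuclear-retained RNAs (10.06) but lay at -0.0285 over the members. Control 5, highest of the controls over the members, lay at 9.74 for these RNAs. Of 6 transcripts known for detained introns, Luc7l3, Srrm2, Clk1, Clk4, Ogt and Nktr, 4 were called higher, and their mean level did not overlap between groups (7.96 to 8.18 against 8.22 to 8.44). Markers of cortical excitatory neurons were bright, Camk2a at 11.4 and Slc17a7 at 10.8 in both groups, and none of the 7 measured was called. Of these markers 5 had a higher mean after PolyI:C and 2 a lower one. The differences ran from -0.0081 (Fezf2) to 0.12 (Neurod6), and the mean level of the list differed by 0.039. What part these RNA classes have in the members' differences was not tested.

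Scaling of the arrays changed the split of calls. As deposited, 467 probe sets were called higher and 186 lower, and after quantile normalization 239 and 285. The median over the brighter probe sets then lay at -0.0023 and that over the members at 0.021, so the distance between them was 0.024, against 0.027 as deposited. Under quantile normalization 57 of 89 members had a higher mean, 2 were called higher, Srsf2 and Rbm12b2, and none lower, against 1.03% of all probe sets called higher. At an unadjusted p under 0.05 the counts were then 20 members higher and 2 lower. With the arrays centred on their medians, 6 members were called higher, the 5 above and Srsf6, against 1.68% of all probe sets. Testing only the brighter probe sets called 8 of 85 members (4.64% of probe sets), testing every row of the table called 1 (0.832%), a trended robust variance prior called 8 (2.48%) and no variance moderation called 0 (0.407%), where an unadjusted p under 0.05 was reached by 26 members, each of them higher after PolyI:C. A block on the animals' replicate numbers called 5 (1.5%).

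**Figure D4:**
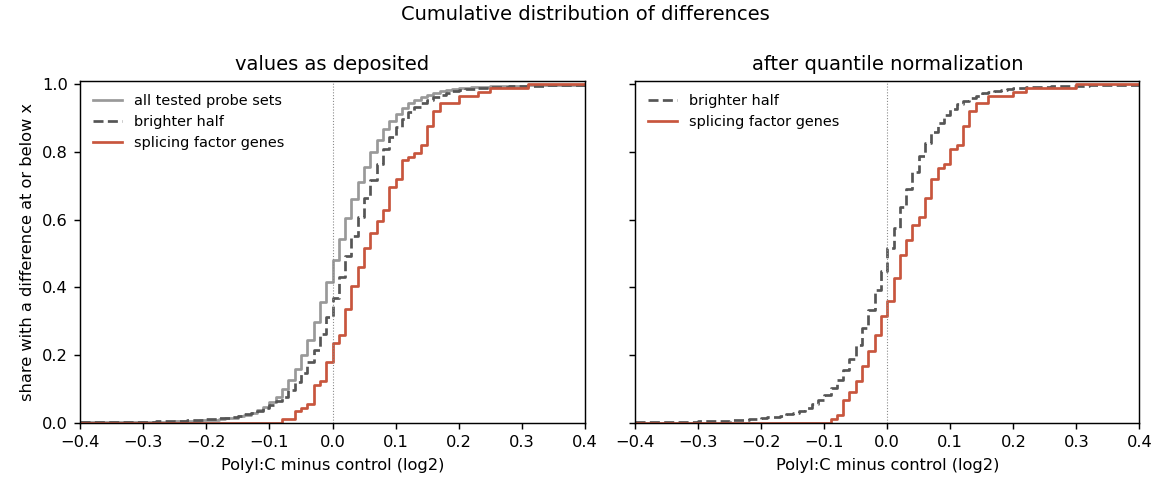
Share of features (vertical axis) with a difference at or below the value on the horizontal axis (PolyI:C minus control, log2), for values as deposited on the left and after quantile normalization on the right. The medians of the members and of the brighter probe sets were 0.048 against 0.022 as deposited and 0.021 against -0.0023 after quantile normalization, and the curves cross in the upper tail, where no member exceeds 0.31.

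Several members were measured by more than 1 probe set, 17 genes with 34 further probe sets, and 30 of the 34 had the sign of the brightest. In Rbm33 the dimmest of 3 was called, from 5.75 to 6.10 in controls and from 6.09 to 6.56 after PolyI:C (0.40 ± 0.083, adjusted p = 0.0206), while the other 2 differed by 0.17 and 0.083. Its choice here follows its value. Rbm25, a U1-linked regulator, gave 0.18 ± 0.047, 0.11 ± 0.032, 0.041 ± 0.041 and -0.015 ± 0.053 on 4 probe sets, the third being the brightest and none called. Sf3b4 gave -0.30 ± 0.085 on its dimmer probe set (adjusted p = 0.0626). The 9 probe sets of Hnrnpa3 differed by 0.083 to 0.099, and 2 of them held identical values. Some genes, such as Hnrnpa3, Hnrnpk, Hnrnpf and Srsf3, have near-identical copies elsewhere in the genome. Probe sequences were not examined, so how far those copies add to these values is not known.

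The promoters of the called genes were set side by side to show the letters around their annotated starts. Which start is used in this tissue was not measured. RefSeq windows of 300 bases, from 250 before to 50 after an annotated start (GRCm38.p6), were found for 75 of the 89 genes, 97 windows in all, and for 4 of the 5 called genes. Capitals mark matches on either strand to 6 short patterns searched: the GC box GGGCGG, the CCAAT box CCAAT, the TATA box TATAAA, the ETS core CCGGAAG, the YY1 core GCCATNTT and the cyclic AMP element TGACGTCA. The YY1 core was added after these windows had been seen. Adjoining matches run together.
Srsf2, chr11:116853045-116853344, minus strand: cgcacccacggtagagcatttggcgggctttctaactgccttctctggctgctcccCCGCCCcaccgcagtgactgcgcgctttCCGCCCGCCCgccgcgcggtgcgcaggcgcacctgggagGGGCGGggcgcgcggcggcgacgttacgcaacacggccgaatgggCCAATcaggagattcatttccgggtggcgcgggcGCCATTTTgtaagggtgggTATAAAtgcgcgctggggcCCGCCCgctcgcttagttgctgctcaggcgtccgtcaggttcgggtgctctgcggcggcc
Rbm5, chr9:107770953-107771252, minus strand: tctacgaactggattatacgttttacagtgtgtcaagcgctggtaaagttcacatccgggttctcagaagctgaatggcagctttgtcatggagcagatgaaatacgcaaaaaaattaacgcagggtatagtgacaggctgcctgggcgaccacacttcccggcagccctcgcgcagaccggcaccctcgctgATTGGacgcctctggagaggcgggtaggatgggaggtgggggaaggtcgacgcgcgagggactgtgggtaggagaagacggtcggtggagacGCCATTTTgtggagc
Sf3b1, chr1:55027429-55027728, minus strand: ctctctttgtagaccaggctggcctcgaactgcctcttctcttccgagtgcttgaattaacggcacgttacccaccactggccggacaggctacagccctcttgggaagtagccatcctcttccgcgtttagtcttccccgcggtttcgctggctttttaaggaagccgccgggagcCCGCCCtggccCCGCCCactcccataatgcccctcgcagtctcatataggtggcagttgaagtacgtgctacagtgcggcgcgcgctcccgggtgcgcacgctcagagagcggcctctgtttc
Srsf11, chr3:158036557-158036856, minus strand: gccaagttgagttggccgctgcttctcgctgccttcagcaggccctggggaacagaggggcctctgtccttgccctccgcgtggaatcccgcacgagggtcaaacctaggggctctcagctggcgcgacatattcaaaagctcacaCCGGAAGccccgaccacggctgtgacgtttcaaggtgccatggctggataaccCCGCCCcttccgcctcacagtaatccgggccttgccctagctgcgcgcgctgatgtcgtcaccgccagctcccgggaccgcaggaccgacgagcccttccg

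The Srsf2 window holds 5 GC boxes, a CCAAT box, a TATA box starting 29 bases before the start and a YY1 core starting 48 bases before it, and 39 CpG pairs. The Rbm5 window has a YY1 core too, inside the transcript, and a CCAAT box on the other strand, but no GC box. The Sf3b1 window has 2 GC boxes. The upstream Srsf11 window has a GC box and an ETS core, as does the window of its other annotated start. Over all 97 member windows the median was 25 CpG pairs, against 7 over 32851 windows of the same length. Those 32851 windows were not limited to genes as bright as the members, so the shares below are not matched for brightness. A GC box occurred in 58.8% of member windows (35.7% of all), a CCAAT box in 50.5% (37.4%), an ETS core in 25.8% (8.86%), a YY1 core in 15.5% (6.05%) and a TATA box in 10.3% (13.6%), and the cyclic AMP element in 0 of 97 (1.79%). The 30 windows of members higher at an unadjusted p under 0.05 held the ETS core in 16.7% and the YY1 core in 23.3%. Their GC box (56.7%), CCAAT box (53.3%), TATA box (10%) and median CpG count (25) were near the member values, and the cyclic AMP element was again absent. The YY1 share includes the Srsf2 and Rbm5 windows, which had been seen before that pattern was added. These are counts of letters and show no binding.

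Other genes of the splicing pathway were taken from 6 lists, whose counts stand against 2.02% of all probe sets and 3.15% of the brighter ones called higher, and 52% and 63% with a higher mean. Of 25 further SR-related and coactivator proteins 4 rose, none fell and 22 had a higher mean, with a median of 0.085. Sfswap, a regulator that limits its own splicing, rose by 0.29 ± 0.046 (adjusted p = 0.00683) and Pnisr, an arginine-serine-rich speckle protein, by 0.41 ± 0.075 (adjusted p = 0.0117), and both calls were kept without any single animal. Srek1 and Arglu1 rose by 0.22 and 0.23 (adjusted p = 0.0236 and 0.0322), calls lost in 5 and 6 of the 12 fits that left out an animal. Of 31 helicases and catalytic-stage proteins 3 rose and none fell, median 0.049: Ddx46, which remodels the U2 particle, by 0.17, Cdc40 by 0.15 and Ddx39b by 0.14 (adjusted p = 0.0253, 0.0374 and 0.0484), each lost in 5 or more of the 12 fits.

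Of 38 neuronal and tissue regulators 3 rose and none fell, median 0.039. These were Tia1, which promotes weak 5' splice sites (0.24 ± 0.054, adjusted p = 0.0253), Nova1, a neuronal regulator (0.24 ± 0.054, adjusted p = 0.0298), and Fubp1 (0.18 ± 0.042, adjusted p = 0.0314), lost in 6, 7 and 8 of the 12 fits. Nova2, the close relative of Nova1, differed by -0.15 ± 0.040 (adjusted p = 0.0573). Of 32 Sm, LSm and other core particle proteins 1 rose, Snrnp48 of the minor spliceosome (0.17 ± 0.044, adjusted p = 0.0468), and 1 fell, Snrpf, an Sm ring protein (-0.19 ± 0.044, adjusted p = 0.0298), with a median of 0.018. Both probe sets were dim, that of Snrnp48 below the 50th percentile of the table and that of Snrpf below the 25th. The Snrnp48 and Snrpf calls were lost in 9 and 7 of the 12 fits. Of 14 exon junction and decay genes Smg1, the kinase of nonsense-mediated decay, rose by 0.20 ± 0.037 (adjusted p = 0.0129), a call kept without any single animal, and the median was 0.032. None of 10 SR protein kinases and phosphatases was called, with Srpk1, which phosphorylates SR proteins, at 0.14 ± 0.041 (adjusted p = 0.0662), Prpf4b as above and a median of 0.012.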

How the data were processed

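Total RNA of 12 medial prefrontal cortex samples was measured on Affymetrix Mouse Gene 1.1 ST strips, per the labels' protocols, which list a 3' IVT and a whole-transcript labelling kit. What the authors deposited is 1 log2 value per probe set and array, judged from the range of the values. The submitters' processing notes name RMA and Partek 6.6 without role or order. RMA usually includes quantile normalization, which was not stated. Array medians lay between 5.15 and 5.21, and the correlation between any 2 arrays was 0.997 to 0.999 across probe sets. The number of arrays limits the precision.

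Of 35556 probe sets, 21218 carried 1 gene, and the 23099 with any gene were tested with lmFit and eBayes (limma 3.58.1, R 4.3.3, no covariates, two-sided, Benjamini-Hochberg over all 23099). Each gene was represented by its brightest single-gene probe set. Symbols updated through RefSeq gene identifiers gave the same members. Members, lists and tests were chosen with earlier results of these data known, so no list was tested as a set. Genes were named if called, among the 2 lowest p of a family, or excluded Luc7l3 and Srrm2; the others, including those with an adjusted p up to 0.10, were chosen after their values were seen. Marker lists for interneurons, astrocytes, microglia, endothelium and choroid plexus were also read, and none of their genes was called. On simulated data (23099 probe sets, 6 against 6, independent noise) the fit recovered 78% of log2 shifts of 0.25. It made 12 false calls in a run that also held shifts of 0.5. Shifts below 0.25, such as those of most called members, were not simulated. Plots used matplotlib 3.10.9 in Python 3.11.15. Alternatives were array scaling, weights, brightness filters, variance models, all rows, a replicate block and leaving out animals.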

Additional observations from a re-analysis of the deposited data

Results flagged for a closer look

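In groups of 6, an animal was singled out when the gap to its nearest neighbour, as a share of the group's range, exceeded Dixon's critical value, which chance gives in about 1 in 20 groups. Of 74 groups examined 2 met this. PolyI:C 3 had 5.36 for Rbm4, where the other treated animals lay at 5.53 to 5.62. Control 3 had a median deviation of -0.11 over the 11 Prpf genes, where the other controls lay at -0.028 to 0.018.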

How the results depend on the processing

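Over 27 named genes and 621 gene and setting pairs, 618 kept their direction, 539 also their side of the threshold, 48 lost a call and 31 gained one. The 3 reversals were Sf3a3 after quantile normalization (-0.0061) and with the mean of its probe sets (-0.0233), and Sf3a2 without control 2 (0.0043). The alternatives for the pathway lists were chosen after seeing the data, and the omission of controls 5 and 6 with their striatal marker levels known; causes were not tested.

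Quantile normalization called 2 members (Srsf 1, Rbm 1, Sf3b 0), 239 probe sets higher and 285 lower (median -0.0098), and in the lists 0 Sm/LSm, 0 helicase, 1 neuronal higher and 1 lower. Testing all rows called 1 member (Srsf 1, Sf3b 0, Rbm 0), 296 probe sets higher and 118 lower, and 2 SR-related, 0 Sm/LSm in either direction, 0 helicase and 0 neuronal genes. Without variance moderation 0 members (Srsf 0, Sf3b 0, Rbm 0), 94 probe sets higher and 28 lower, 1 SR-related and 0 Sm/LSm, helicase and neuronal genes were called. With the 50th percentile filter 8 members (Prpf 2), 2 kinases, 0 Sm/LSm genes and 1 neuronal gene (lower) were called, and the median over probe sets was 0.0216. The trended robust prior called 8 members (Prpf 1), 2 kinases, 5 helicases and 1 neuronal gene lower. Array weights called 1 Prpf, 1 kinase and 1 neuronal gene (lower). Median centring called 0 Sm/LSm genes higher, the 25th percentile filter 0 lower, and including Luc7l3 gave 1 Luc7l call. Without controls 5 and 6 there were 11 members (Hnrnp 1, Prpf 2, Rbm 4), 1 kinase, 0 Sm/LSm genes lower, 1 neuronal gene lower and 2 decay genes.

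Same-numbered animals did not deviate together in expression (r between -0.092 and 0.11). Such correlations cannot show whether the numbers pair animals, which the labels do not state. With the replicate block 5 members (Sf3b 0, Prpf 1), 346 probe sets higher, 0 Sm/LSm genes and 1 helicase were called; Sf3b1 and Srsf11 lost their calls (adjusted p = 0.0536 and 0.0562), and Srsf6 and Prpf38a gained one.

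Leaving out 1 animal at a time called 1 to 10 members (median 0.0406 to 0.0565), 154 to 586 probe sets higher and 73 to 232 lower (median -0.0018 to 0.0058). By family, calls ran from 1 to 3 for Srsf, 0 to 4 for Rbm, 0 to 2 for Prpf and 0 to 1 for Sf3b, and were 0 for the others. Family medians ran from 0.064 to 0.1159 (Srsf), 0.035 to 0.0559 (Hnrnp), 0.1004 to 0.1417 (Luc7l), 0.0436 to 0.0868 (Prpf), 0.0368 to 0.0611 (Rbm), -0.0372 to 0.0043 (Sf3a), -0.0013 to 0.0398 (Sf3b), 0.0725 to 0.0924 (Srrm) and 0.0176 to 0.0653 (U2af). In the lists they ran from 0 to 1 for kinases, 2 to 5 for SR-related, 0 to 5 for helicases, 0 to 5 for neuronal regulators (0 to 1 lower) and 0 to 1 for Sm/LSm genes in each direction.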
